A study of Mus musculus with 5 samples.

Results

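The variable (V) genes of the antibody light chains were taken as all gene symbols that begin with Igkv (kappa) or Iglv (lambda), which gave 163 of the 32285 genes counted, 160 of them kappa and 3 lambda. Their transcripts were followed in plasma cells and B cells of mouse intestine. A light chain consists of a V segment, a joining segment and a constant region, and each B cell builds its chain by recombination at the Igk locus or, if that fails to give a usable chain, usually at the Igl locus. A mature B cell therefore normally makes a kappa or a lambda chain with 1 V gene, and plasma cells, the antibody-secreting end of this lineage, make that chain in very large amounts. In the gut most plasma cells secrete IgA. Mouse lambda chains use very few V genes, of which Iglv1 and Iglv2 are close copies of each other, and mice make mostly kappa chains.

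The data are single-cell RNA counts from 5 droplet libraries (10x Genomics), 1 per segment. Lists of values by segment run from duodenum through jejunum, ileum and colon to rectum. The labels give the species and the tissue of each library, list epithelial, mesenchymal and immune cells, and say that cells negative for the dead-cell dye propidium iodide (5 µg/ml) were sorted. They give no strain, age, sex, treatment or number of animals, so the libraries may or may not share an animal. No segment was replicated, and no test was made between segments.

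After filtering, 11922 of 16535 barcodes remained. Plasma cells, defined by Jchain at 0.5% or more of a cell's UMIs (unique molecule counts) and at least 3 UMIs of Mzb1 and Tnfrsf17 together, numbered 81, 74, 32, 96 and 280, or 563 in all. B cells, defined by at least 3 UMIs of Cd79a, Cd79b and Ms4a1 together with Jchain below 0.5%, numbered 1298, 560, 988, 437 and 530, or 3813 in all. Plasma cells were much deeper than B cells, with median UMIs per cell of 25353 to 32303 against 2843 to 3640. Of the markers that the rule did not use, Sdc1, Xbp1, Prdm1 and Derl3 for plasma cells and Pax5, Cr2, Fcer2a and Cd74 for B cells stood higher in their own class without overlap between libraries. Irf4, the remaining plasma cell marker, stood at 50.9 to 79.5 CPM in plasma cells and 46.1 to 107 CPM in B cells. Light chain constant genes took 321484 to 446972 CPM in plasma cells, which lowers the CPM of other genes there. Irf4 was found in 55.6% to 81.25% of plasma cells and in 15.8% to 33.6% of the shallower B cells. The plasma cell surface protein Sdc1 had 203 to 241 CPM (a gene's UMIs scaled to the total of its class and library) in plasma cells and 6.48 to 14.7 CPM in B cells, whereas the B cell factor Pax5 had 0.289 to 22.8 CPM in plasma cells and 165 to 351 CPM in B cells. Other cell types left some RNA in both classes. The 5 epithelial markers summed to 99.2 to 438 CPM in plasma cells and 739 to 1099 CPM in B cells, and the 7 T cell markers to 26.4 to 126 CPM in plasma cells and 16.6 to 56.8 CPM in B cells, and their part in the results was not tested. Between pairs of libraries 0 to 5 barcodes were shared.

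Most light V transcripts were found in plasma cells. These held 53744 light V UMIs, with a median per cell of 75, 77.5, 66.5, 49 and 68.5 UMIs, whereas the B cells held 1178 and had a median of 0 in every segment. Of the 563 plasma cells 548 had at least 3 light V UMIs, against 36 of the 3813 B cells. T cells, which should lack these transcripts, held 6 UMIs in 774 cells. The 5112 epithelial cells held 203 UMIs. Kappa V UMIs thus stood at 23.8 per 100 cells in B cells, at 0.258 per 100 in T cells and at 2.35 per 100 in epithelial cells, whose median depth of 20116 to 36253 UMIs was far above that of B cells.

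V segments were captured far less than the constant regions they are joined to. In plasma cells whose constant region was kappa there were 3.92 kappa V UMIs per 1000 UMIs of the kappa constant gene Igkc. Of the 163 members 89 had a UMI in plasma cells and 94 in B cells. By symbol all 163 matched RefSeq's table for GRCm38.p6 (mm10), which lists 104 as V segments and 59 as V pseudogenes. Pseudogenes held 573 of the 53744 plasma cell UMIs (1.07%) and 19 of the 1178 B cell UMIs (1.61%). The 8 joining segment genes on the list of light chain genes had 7 or 8 members at 0 in every library and class.

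The first comparison asked which light chain each plasma cell made, by giving a cell to the V gene with over 50% of its light V UMIs when it had at least 3 of them. By this rule 409 plasma cells were assigned, and Iglv1 led in 44, 25, 8, 22 and 112 cells. Lambda V genes were dominant in 65.2%, 46.4%, 32%, 37.3% and 61.5% of the assigned cells, with exact 95% (Clopper-Pearson) intervals of 52.8% to 76.3%, 33% to 60.3%, 14.9% to 53.5%, 25% to 50.9% and 54.4% to 68.3%. All intervals here cover counting error only. Igkv10-96 had 8, 11, 2, 10 and 9 cells, fewer than Igkv6-15 in the ileum (3 cells) and Iglv2 in the rectum (11 cells). Only 24 B cells could be assigned, 4, 4, 14, 0 and 2 by segment, and 1 of them was lambda. The lambda share of plasma cells minus that of B cells averaged 38.8 percentage points over the 4 libraries with an assigned B cell (two-sided exact sign-flip permutation test, p = 0.125, the smallest that 4 libraries allow), and B cells gave too few calls for that difference to carry weight.

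The constant regions gave a different picture of the same cells. A plasma cell was called kappa constant when the lambda constant genes (Iglc1 to Iglc4) made up at most 10% of its Igkc and Iglc UMIs, lambda constant at 90% or more, and both in between. A call needed at least 3 Igkc and Iglc UMIs together, here and in B cells. This grouping was chosen after the data were seen. Of the 563 plasma cells 429 were kappa constant, 92 lambda constant and 42 both. Lambda constant cells were 14, 5, 3, 4 and 66 by segment, or 17.3% (9.78% to 27.3%), 6.76% (2.23% to 15.1%), 9.38% (1.98% to 25%), 4.17% (1.15% to 10.3%) and 23.6% (18.7% to 29.0%). These intervals count cells of 1 library each as independent, so they cannot compare the segments. Of the 42 cells with both, 34 were rectal. Their median depth was 50880 UMIs, against 28413 in kappa-constant and 32988 in lambda-constant cells, and the part of doublets in them was not tested.

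Counted by the larger constant region, 17.3%, 10.8%, 12.5%, 5.21% and 27.5% of plasma cells were lambda, against 4.25%, 5.57%, 5.47%, 4.59% and 4.53% of B cells. The B cell shares lay within a narrow range, 4.88% ± 0.596 (SD, n = 5 libraries), and the plasma cell shares were spread widely, 14.7% ± 8.38. Plasma cells were higher in 5 of 5 libraries, by 13.0, 5.25, 7.03, 0.621 and 22.97 points. The mean difference was 9.78 points (two-sided exact sign-flip permutation test, p = 0.063, the smallest that 5 libraries allow, so the design cannot reach 0.05). Without the rectum it was 6.48 points, and the colon showed almost no difference. B cells carried 17.2% to 20.4% of their constant region UMIs on Iglc genes, with a median of 5 to 7 Iglc UMIs per cell. Of the 3803 B cells with enough constant region UMIs for a call, 2612 fell between the limits. All B cells together held 8.01 Iglc UMIs per cell, against 0.429 in T cells and 1.24 in epithelial cells.

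**Figure D1:**
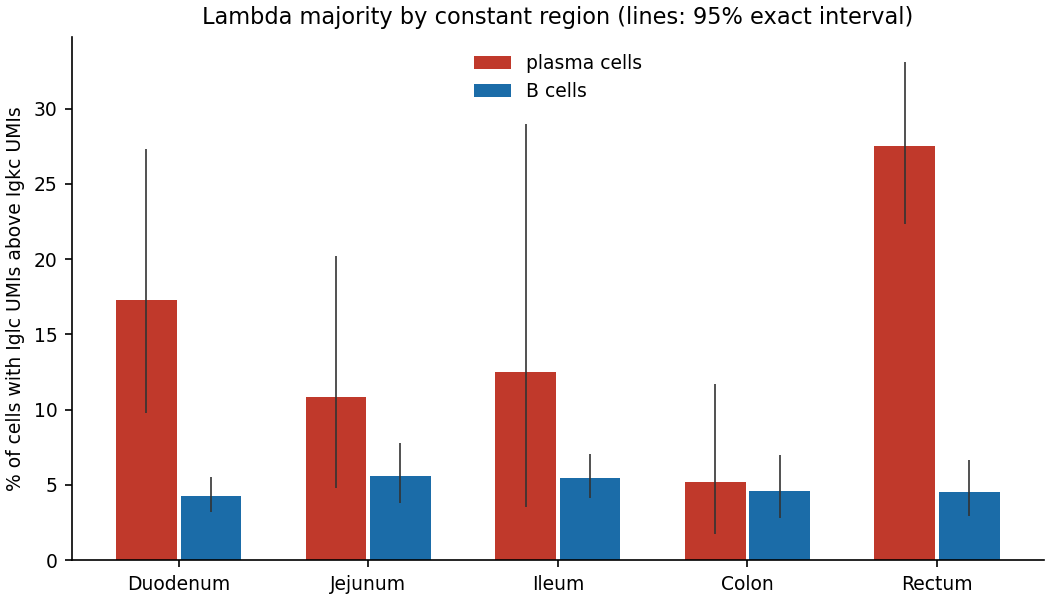
Percent of cells with more Iglc than Igkc UMIs (y axis) in plasma cells (red, left) and B cells (blue, right) of each segment (x axis), with exact 95% intervals as lines. B cell bars stay between 4.25% and 5.57%, whereas plasma cell bars span 5.21% in colon to 27.5% in rectum.

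Iglv1 transcripts were abundant in plasma cells whose constant region was kappa. Of the 429 kappa-constant plasma cells 394 (91.8%) had an Iglv1 UMI, with a median of 19 UMIs, quartiles of 5 and 50 and a highest value of 545. By segment the medians were 27, 24, 9, 12.5 and 19 UMIs. These cells also carried 36 kappa V UMIs at the median. Iglv1 alone exceeded all kappa V genes together in 127 of the 429, and it was the dominant gene in 116 of the 295 that could be assigned (39.3%). Iglv1 counts of these cells were therefore a large part of the lambda calls made from V genes.

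The ratio of Iglv1 to the lambda constant genes was then compared between the plasma cell groups. These groups were defined by their Iglc share, so a gap in a ratio over Iglc UMIs was largely set by the grouping. Median Iglc UMIs per cell were 59 in kappa-constant and 13910 in lambda-constant cells, against Iglv1 medians of 19 and 50.5. Kappa-constant cells held 354 Iglv1 UMIs per 1000 Iglc UMIs and lambda-constant cells 4.61, a difference of 76.8-fold. Within single libraries the difference was 121.8-fold, 98.3-fold, 70.3-fold, 59.6-fold and 56.7-fold, with the same limit. T cells and epithelial cells, whose immunoglobulin UMIs serve as background, had 12.0 (exact Poisson interval 3.28 to 30.8) and 10.7 (8.30 to 13.6) per 1000. Both values lay above that of the lambda-constant cells, which only the T cell interval covers, and far below that of the kappa-constant cells. The T cell value rests on 4 Iglv1 UMIs, and 4127 of the 6360 epithelial Iglc UMIs came from the rectum. In the plot of V gene UMIs by constant region, cells at the kappa end cover the whole range of Iglv1 found at the lambda end and reach higher.

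**Figure D2:**
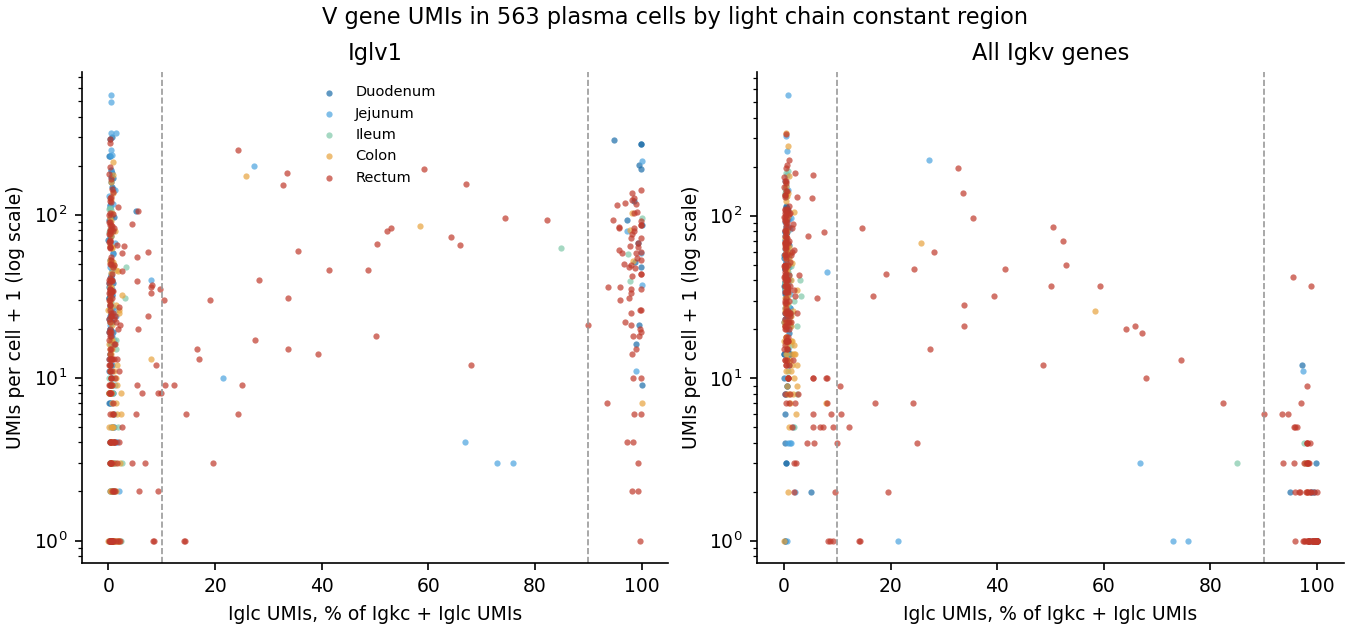
Each point is 1 of 563 plasma cells, coloured by segment, with the Iglc percent of its Igkc and Iglc UMIs on the x axis and UMIs plus 1 on a log y axis, for Iglv1 (left) and all Igkv genes summed (right). Dashed lines mark the limits of 10% and 90%. Iglv1 is high at both ends (medians of 19 and 50.5 UMIs in kappa-constant and lambda-constant cells), whereas the Igkv medians are 36 and 0.

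Kappa V transcripts were far rarer in the opposite group. The 92 lambda-constant cells held 193 kappa V UMIs, or 2.57% of their light V UMIs, with a median of 0 per cell. Per 1000 Igkc UMIs, which also defined the groups, this was 3.92 in kappa-constant and 8.51 in lambda-constant cells. Iglv3, the lambda V gene that lies nearer to Iglv2 on chromosome 16, was also frequent in kappa-constant cells, at a lower level than Iglv1. It was found in 336 of 429 kappa-constant and 37 of 92 lambda-constant cells. Its UMIs per 1000 Iglc UMIs were 33.8 and 0.150, a ratio with the same limit as that of Iglv1. Iglv2 was rare in kappa-constant cells, with 47 UMIs in 41 of 429.

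In B cells, grouped by the larger constant region and so again by Iglc UMIs, the same contrast was small for Iglv1. Among B cells with at least 10 constant region UMIs, those with a kappa majority had 3.45 Iglv1 UMIs per 1000 Iglc UMIs and those with a lambda majority 2.66. Iglv3 stood at 6.45 and 0.531 per 1000, though the lambda-majority value rests on 3 UMIs. In contrast to plasma cells, where Iglv1 held 26411 UMIs and Iglv3 2087, B cells held 102 UMIs of Iglv1 and 165 of Iglv3. Iglv1 UMIs stood at 2.68 per 100 B cells, 1.33 per 100 epithelial cells and 0.517 per 100 T cells. B cell values of Iglv1 thus lie nearer to the background than those of the kappa V genes, and the part of background in them was not tested.

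The 92 lambda-constant plasma cells differed by constant gene in the V gene they carried. All 18 cells led by Iglc1 and all 20 led by Iglc3 had Iglv1 as their top lambda V gene. Of the 54 cells led by Iglc2, 36 had Iglv1 on top, 13 Iglv2 and 1 Iglv3, and 4 were tied. Iglv2 was found in 52 of these 54 and made up 30.9% of their lambda V UMIs, against 0.879% in Iglc1 cells and 1.52% in Iglc3 cells. In the mouse Iglv2 usually joins Iglc2, and Iglv1 usually joins Iglc3 or Iglc1. Because Iglv1 and Iglv2 are close copies, the split of reads between them is uncertain. Kappa-constant cells also held Iglv1, in 394 of 429 cells and at a median of 19 UMIs. Iglv1 on top therefore does not by itself show the V gene of a cell's lambda chain.

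The rectal lambda cells were concentrated in few combinations of heavy and light chain. Where a heavy V gene held over 50% of at least 3 heavy V UMIs, Ighv10-1 was dominant in 46 of the 50 Iglc2 cells with such a call, 42 of them rectal, 3 colonic and 1 duodenal. In the rectum Ighv10-1 led 43 of 59 lambda-constant cells (72.9%) and 2 of 150 kappa-constant cells (1.33%). Ighv7-3 was dominant in 12 of the 17 Iglc3 cells with a call, 11 of them rectal. Iglc1 cells showed no such concentration, with 12 heavy V genes in 17 cells. The files hold no joining sequences, so a shared V gene does not show a shared clone.

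Within the kappa locus the V genes used by plasma cells were many and unequal. To set Iglv1 aside, each kappa-constant cell was given the kappa V gene with over 50% of at least 3 kappa V UMIs, a rule added after the data were seen. This assigned 376 of 429 cells (60, 59, 26, 78 and 153), and in the median cell of each segment the top gene held 92.3% to 97.9% of the kappa V UMIs. In all, 62 of the 160 kappa genes were dominant in some cell and 98 in none. The 10 genes with the most cells made up 188 of the 376 cells. The segments used 32, 25, 18, 38 and 44 genes. In all 5 libraries 5 genes were dominant in at least 1 cell, namely Igkv10-96, Igkv1-110, Igkv6-15, Igkv1-117 and Igkv16-104, and 17 were dominant in a single library.

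Igkv10-96 (ENSMUSG00000094420, chr6:68631965-68632430 in GRCm38.p6, 2094.5 kb from Igkc) was the most used. It was dominant in 9, 13, 3, 16 and 16 cells, or 15% (7.10% to 26.6%), 22.0% (12.3% to 34.7%), 11.5% (2.45% to 30.2%), 20.5% (12.2% to 31.2%) and 10.5% (6.10% to 16.4%). It ranked first in duodenum, jejunum and colon, and its shares were not tested between segments. Its cells held a median of 27 UMIs of it. With UMIs summed in place of cells counted, its mean share was 10.4% in place of 15.9%.

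Igkv1-110 (chr6:68270527-68271265) came second, with 6, 1, 2, 5 and 19 cells, and led in the rectum at 12.4% (7.64% to 18.7%), where its interval overlapped that of Igkv10-96. Igkv6-15 had 1, 3, 4, 3 and 5 cells and led in the ileum with 4 of 26, 1 cell more than Igkv10-96. The other 7 of the 10 genes with the highest mean share over libraries had 7 to 13 cells each. They were Igkv1-135, Igkv8-19, Igkv9-120, Igkv1-117, Igkv4-72, Igkv17-121 and Igkv14-111. Igkv14-111 had 10 of its 13 cells in the rectum. Outside these 10 and chosen after their values were seen, Igkv8-24 had 11 of 12 cells in the rectum and Igkv13-84 had 11 of 13 there and 2 in the colon. The 13 calls of Igkv13-84 rest on few molecules, with a median of 5 UMIs of it per cell and a lowest value of 3. Its cells held 0.828 UMIs of it per 1000 Igkc UMIs, against 3.51 for Igkv10-96 in its own cells.

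**Figure D3:**
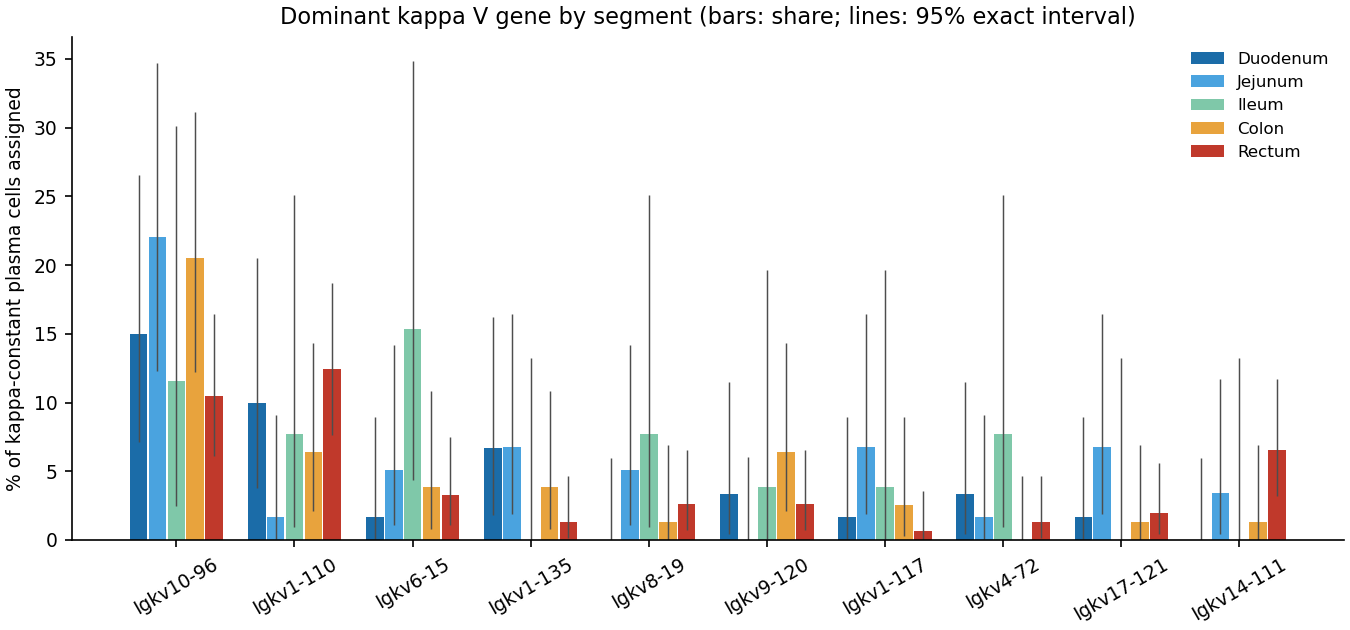
Percent of assigned kappa-constant plasma cells (y axis) with a given kappa V gene dominant (x axis), 1 bar per segment with its exact 95% interval. The 10 genes with the highest mean share over libraries are shown. Igkv10-96 stands highest in duodenum, jejunum and colon, at 15%, 22.0% and 20.5%, and most other bars lie below 8%.

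The spread over genes was similar in all segments. The probability that 2 cells drawn from a library shared their kappa V gene was 4.01%, 6.66%, 3.69%, 5.39% and 4.55%. For 2 cells drawn from different libraries it was 3.47% to 5.78%, so cells of the same segment shared a kappa V gene about as often as cells of different segments. By family, Igkv10 and Igkv1 had 59 cells each, Igkv4, the family with most genes (33), had 54, Igkv6 had 36 and Igkv8 33. The families Igkv7, Igkv18 and Igkv20, with 1 gene each, were dominant in none. Of the 59 Igkv10 cells 57 had Igkv10-96, whereas 16 of the 33 Igkv4 genes were dominant in some cell.

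Position along the locus was compared by distance to Igkc, over the 22.9 to 3170.8 kb that the genes span. Genes within 1000 kb were dominant in 121 of 376 plasma cells (32.2%), those from 1000 to 2000 kb in 76 (20.2%) and those beyond in 179 (47.6%). The bins hold 50, 57 and 53 genes, of which 40, 33 and 28 are annotated as V segments and not pseudogenes. In B cells the same bins held 43.8%, 11.7% and 44.6% of 909 kappa V UMIs. The shares of plasma cells within 1000 kb were 21.7%, 32.2%, 53.8%, 30.8% and 33.3% by segment, against 44.9%, 34.3%, 40.5%, 62.7% and 51.7% of UMIs in B cells, and were lower in 4 of 5 libraries. These are shares of cells and of UMIs, which differ as measures.

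To compare plasma cells and B cells by the same measure, each cell with a kappa V UMI and a single top kappa V gene was counted once, which gave 412 kappa-constant plasma cells and 658 B cells. This rule was added after the data were seen. Of the B cells with a kappa V UMI 571 had exactly 1, so their call rests on 1 molecule. B cells used 88 genes and plasma cells 62, with 57 in both. The probability that 2 cells of a library shared their gene was 3.88%, 6.04%, 3.69%, 4.91% and 5.18% in plasma cells and 2.94%, 2.90%, 2.48%, 2.42% and 2.56% in B cells. The means were 4.74% ± 0.969 in plasma cells and 2.66% ± 0.241 in B cells (SD, n = 5 libraries each). Plasma cells were higher in 5 of 5 libraries, by 2.08 points on average (two-sided exact sign-flip permutation test, p = 0.063, the smallest possible). With the dominant gene over kappa and lambda together the difference was 21.0 points over 4 libraries, under a rule by which Iglv1 led the plasma cells.

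Igkv10-96 showed the widest gap among the genes most used by plasma cells. It was the top gene of 14.98% ± 4.51 of plasma cells and 4.01% ± 0.827 of B cells (SD, n = 5 each), higher in plasma cells in 5 of 5 libraries. It was chosen as the gene most used by these plasma cells, so the gap is a description and was not tested. Igkv1-110 stood at 8.61% ± 4.55 in plasma cells and 3.997% ± 2.52 in B cells, higher in 4 of 5 libraries, and Igkv6-15 at 5.84% ± 5.49 and 3.54% ± 1.58, higher in 2 and lower in 2.

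Several genes leaned the other way. Igkv1-117, the most frequent in B cells, was the top gene of 3.16% ± 2.22 of plasma cells and 7.01% ± 2.28 of B cells. Igkv12-44 stood at 2.01% ± 1.60 in plasma cells and 4.94% ± 1.78 in B cells, and Igkv19-93 at 0.785% ± 0.745 and 4.89% ± 2.86. Igkv3-4 led in 0 of 412 plasma cells and in 24 of 658 B cells, a mean of 3.89% ± 2.33, and Igkv6-20 stood at 0.771% ± 1.42 in plasma cells and 3.35% ± 1.84 in B cells. Each of these 5 was lower in plasma cells in 5 of 5 libraries. They were chosen from the 10 genes most frequent in these B cells, so this direction is a description and was not tested. The genes Igkv12-46 and Igkv2-109, also among the 10 most frequent in B cells, were lower in plasma cells in 4 and 3 of 5 libraries. By summed UMIs Igkv1-117 was raised in jejunal B cells by 1 cell with 37 UMIs, which the count of cells takes once.

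**Figure D4:**
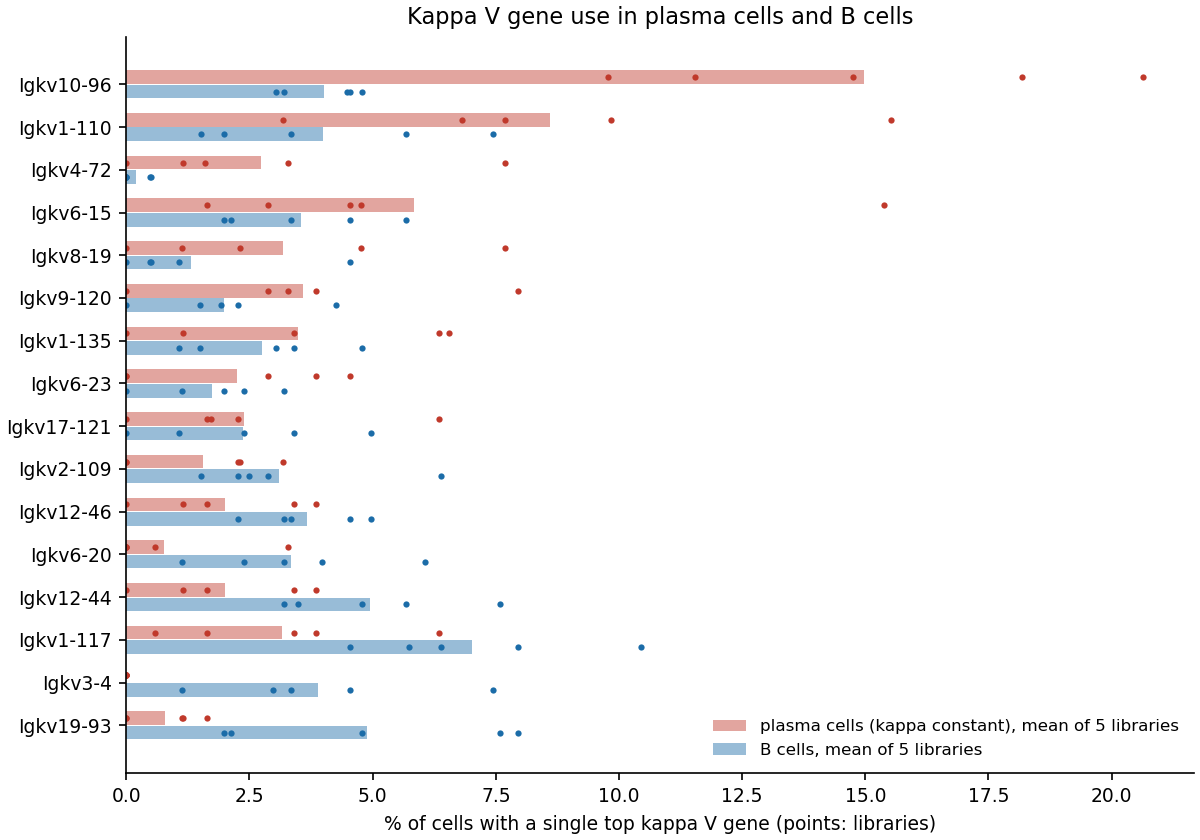
Percent of cells with a single top kappa V gene (x axis) for genes among the 10 most used in kappa-constant plasma cells or in B cells (y axis), with bars for the mean of 5 libraries and points for the libraries, plasma cells in red above B cells in blue. Igkv10-96 averages 14.98% in plasma cells and 4.01% in B cells, and Igkv3-4 is at 0 in plasma cells.

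Summed UMIs per library and class were also tested between plasma cells and B cells with the edgeR quasi-likelihood test and library as a term. Of 9907 genes tested 20.4% were higher and 19.7% lower in plasma cells at a Benjamini-Hochberg adjusted p under 0.05. Only 11 of the 163 members passed the filter on low counts, and those 11 were higher in plasma cells. A member could pass through its plasma cell counts alone, so this count supports nothing. The count of members lower in plasma cells was 0 in edgeR and 0 in DESeq2, also at an unadjusted p under 0.05.

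The folds of the 11 tested members are given as descriptions, because the filter could pass them through plasma cell counts alone. Iglv1 had the largest log2 fold of these, 9.27 (SE 0.35, higher in 5 of 5 libraries). It stood at 2629, 1852, 1108, 1017 and 1117 CPM in plasma cells, against 5.57, 5.41, 4.003, 6.28 and 7.65 CPM in B cells. The B cell values rest on 102 UMIs, and the part of background RNA in them was not tested. Igkv10-96 stood at 121, 337, 118, 117 and 70.9 CPM in plasma cells and 2.19, 1.80, 2.48, 1.05 and 1.27 CPM in B cells, with a log2 fold of 7.43 (SE 0.26). The log2 folds of Igkv9-120, Igkv1-110, Igkv6-15 and Iglv3 were 7.39, 7.01, 6.30 and 5.03. The constant gene Igkc, for comparison, had 293972 to 345744 CPM in plasma cells and 5444 to 8736 CPM in B cells.

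Between small and large intestine, members were sought by size, meaning that a side's lowest library had to exceed the opposite side's highest by 4-fold or more, in genes with 50 UMIs or more. No test was made, since the segments of a side are not replicates. In plasma cells 0.0749% of 9345 genes met this rule on the small intestinal side and 0.203% on the large intestinal side. Of 53 members with enough UMIs, 1 was higher in each. Igkv4-72 had 59, 120 and 69 UMIs in duodenum, jejunum and ileum (27.1, 45.6 and 74.4 CPM), against 2 and 42 UMIs in colon and rectum (0.637 and 4.05 CPM), a gap of 6.68-fold. It was dominant in 5 small and 2 large intestinal cells. Igkv13-84 had 1, 0 and 0 UMIs in the small and 48 and 157 in the large intestine (15.3 and 15.1 CPM), a gap of 4.68-fold with the zeros set to a floor of 3 counts per library. It was dominant in 0 small and 13 large intestinal cells. In B cells 4 members had enough UMIs and 0 met the rule in either direction, where 0.543% of 11058 genes met it on the small and 0.181% on the large intestinal side.

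Light and heavy V genes were then read together in kappa-constant plasma cells. A dominant gene of each kind was found in 328 cells, which formed 190 combinations. Of these 41 occurred in at least 2 libraries, with 136 cells, and 9 in at least 3. The probability that 2 cells shared a combination was 0.779%, 1.28%, 1.30%, 0.942% and 1.57% within a library and 0.0694% to 0.656% between libraries. Every within-library value lay above the highest between-library value, unlike for the kappa gene alone. Colon and rectum shared the most combinations, 18.

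The most frequent combination of dominant genes, Igkv13-84 with Ighv1-53, was found in 11 rectal cells and 1 colonic cell. These are 12 of the 13 Igkv13-84 cells with a heavy call, and the Igkv13-84 calls rest on a median of 5 UMIs. Igkv10-96 with Ighv1-80 was found in all 5 libraries, in 1, 3, 1, 4 and 1 cells. Igkv9-120 with Ighv1-82 was found in 2 duodenal, 4 colonic and 4 rectal cells. Igkv14-111 with Ighv1-78 was found in 7 cells, all rectal. The 51 Igkv10-96 cells with a heavy call used 20 heavy V genes, and 10 of them had Ighv1-80, which was dominant in 17 of all 361 kappa-constant cells with a heavy call (4.71%).

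**Figure D5:**
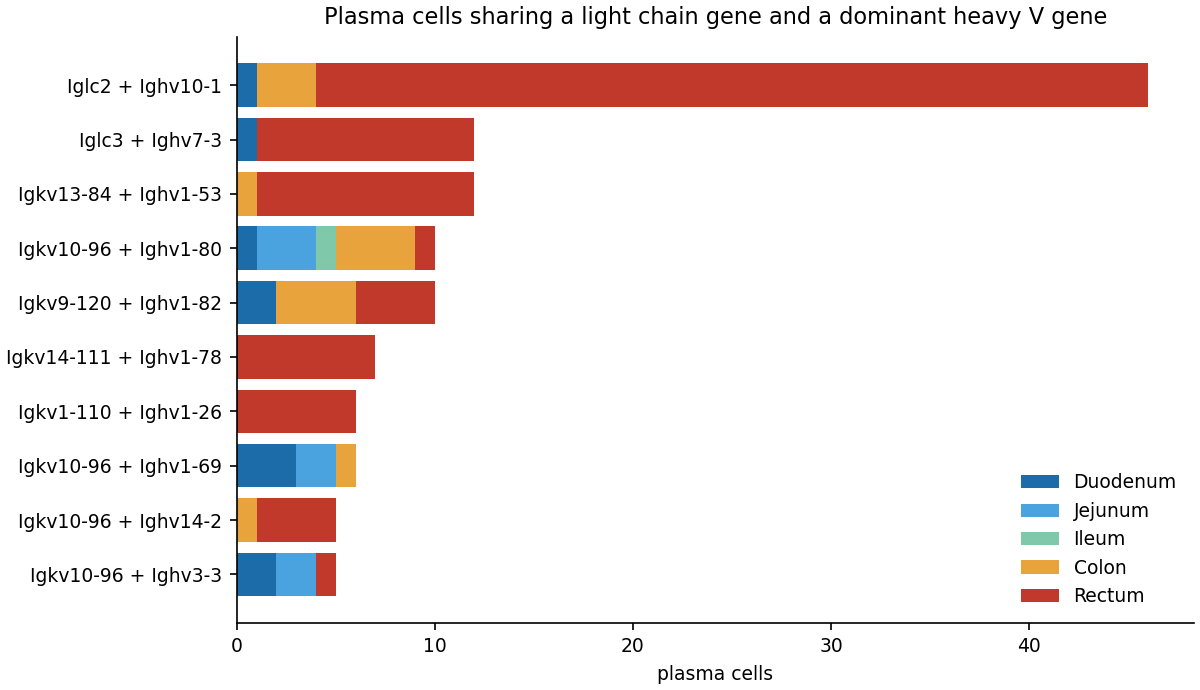
Number of plasma cells (x axis) that share a dominant heavy V gene and a light chain gene (y axis), stacked by segment. The top rows show lambda-constant cells by constant gene, and the others the 8 most frequent kappa V and heavy V combinations. Iglc2 with Ighv10-1 reaches 46 cells, 42 of them rectal, whereas Igkv10-96 with Ighv1-80 has cells of all 5 segments.

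A second kappa V gene was common. Among 362 kappa-constant cells with at least 10 kappa V UMIs, a second gene held 20% or more in 107 (29.6%), and in 31 of these it was of the same family. The most frequent pair was Igkv1-110 with Igkv1-88, in 22 cells, and 62 of the 72 pairs seen occurred in 1 cell. Igkv1-88 had at least 3 UMIs in 26 cells, 23 rectal and 3 colonic, and all 26 also had at least 3 of Igkv1-110. In the small intestine Igkv1-88 had 0 UMIs in kappa-constant cells, although 14 such cells had at least 3 UMIs of Igkv1-110. Ighv1-26 was the dominant heavy gene in 16 of the 26 cells, all rectal, and these held 767 UMIs of Igkv1-110 and 730 of Igkv1-88. Both genes belong to family Igkv1, and how reads were divided between related genes is not given in the sources used here, so the split between them is uncertain.

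Other genes of the light chain pathway were looked at in the same edgeR test. All 4 tested members of the light chain constant list were higher in plasma cells, led by Igkc with a log2 fold of 6.76 (SE 0.17). The log2 folds of Iglc1, Iglc3 and Iglc2 were 6.55 (SE 0.91), 5.40 (SE 0.45) and 5.34 (SE 0.80). Iglc1, Iglc2 and Iglc3 varied widely over libraries in plasma cells, at 1230 to 77157, 1267 to 87304 and 2763 to 19915 CPM, and narrowly in B cells, at 276 to 449, 610 to 1107 and 457 to 532 CPM. Iglc4 had 25 UMIs in plasma cells and 42 in B cells.

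Of the 8 heavy chain constant genes 6 were tested, and 2 were higher and 1 lower in plasma cells. Igha, the IgA constant gene, had a log2 fold of 10.18 (SE 0.39), and Ighg1, an IgG constant gene, one of 4.92 (SE 1.30). Ighd, the IgD constant gene of naive B cells, was lower with -5.01 (SE 0.67), whereas Ighm, at -1.02 (SE 1.10, edgeR adjusted p = 0.491), did not pass. Igha led among heavy constant genes in 415 of 429 kappa-constant (96.7%, 94.6% to 98.2%) and in 92 of 92 lambda-constant plasma cells (100%, 96.1% to 100%). These cells were pooled over libraries, and the difference was not tested.

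Apart from Vpreb3, genes of light chain assembly were nearly silent. Rag1 and Rag2, the recombinase genes, had 0 UMIs in plasma cells and B cells, and Dntt had 16 and 17. None of the 3 recombination genes reached the test. Of the 4 surrogate light chain genes Vpreb3 alone was tested. It was lower in plasma cells, at 52.5 to 181 CPM against 341 to 477 CPM in B cells (log2 fold -0.75, SE 0.16, edgeR adjusted p = 0.00598). The CPM are parts of all UMIs, of which the light chain constant genes took 321484 to 446972 CPM in plasma cells. The fold uses edgeR's scaling instead, so CPM and fold are on different scales. Vpreb1, Vpreb2 and Igll1 had 8, 0 and 0 UMIs in plasma cells and 11, 0 and 1 in B cells.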

How the data were processed

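Gene expression was measured in 5 single-cell libraries, 1 per intestinal segment. Per the labels' protocols, cells negative for propidium iodide were sorted and 150-bp paired-end reads were made. The authors deposited UMI counts per gene and barcode, as whole numbers without normalization. Per the submitters' processing notes, Cell Ranger 4.0.0, Seurat and mm10 were used, whereas each matrix header names cellranger 7.2.0. The counting of reads shared by related V genes is not given in the sources used here.

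A barcode was kept if it had 300 genes or more and no more than 20% mitochondrial UMIs, and 333 with the highest Scrublet scores (scanpy 1.11.5, 0.8% per 1000 barcodes) were removed. CPM come from UMIs added up within a class of a library and carry no TMM factors, so they are not on the scale of the edgeR folds. The edgeR 4.0.16 quasi-likelihood test was run on these sums with filterByExpr, TMM factors and a library term, adjusted by Benjamini-Hochberg at 0.05 over all genes tested, after a check on simulated counts. DESeq2 1.42.0 was an alternative. Differences per library were tested with exact sign-flip permutations (scipy 1.17.1, numpy 2.4.6). The spread behind each p-value is that between these libraries, which are different segments.

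Genes named are all Iglv genes, the 10 Igkv genes most used in plasma cells and the 10 in B cells, the leading gene of each library, the largest edgeR folds and those past the size rule. Because Iglv1 UMIs took over many kappa-constant cells and few B cells were assigned, ranks in plasma cells come from kappa V genes alone and those in B cells from cells with a single top kappa V gene. Total UMIs per library were 41953568 to 65546664. The members and lists were chosen with earlier results of these data known. Grouping by constant region, the kappa-only rules and the combinations with heavy V genes were added after seeing the data. The spatial data named in the design text were not analysed here.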

Additional observations from a re-analysis of the deposited data

How the results depend on the processing

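Alternatives were every deposited barcode, a 10% mitochondrial limit, no doublet removal, stricter plasma and B cell definitions (Jchain at 2% or more, and no Jchain UMI), 10 light V UMIs or an 80% share for the dominant gene, summed UMIs, other scaling or filters, and each library left out. No alternative turned the direction of a mean or count, but single libraries turned. The rectal lambda share difference by dominant V gene, 11.5 points from 2 assigned B cells, was -38.7 at 10% mitochondrial UMIs and -46.3 at an 80% share, and the jejunal same-gene difference of 7.03 points was -10.7 at an 80% share. The count of members higher in plasma cells, 11, was 40 of 70 tested with DESeq2 and 63 of 108 without a filter. Of all genes tested, 1938 of 13798 and 2095 of 20004 were higher under these settings. The count was 11 without the library as replicate block, where 2001 of 9907 genes were higher. With a library left out it was 11 to 16, where 1672 to 1822 of 9803 to 10067 genes were higher. In each setting 0 members were lower. The lambda share difference by dominant V gene, 38.8 points, was 29.98 to 47.9 with a library left out, 25.6 at 10% mitochondrial UMIs, 24.8 at an 80% share, 29.6 with summed UMIs and 9.78 by constant regions. At 10 light V UMIs it was 39.2 points over the 2 libraries with an assigned B cell. The same-gene difference of 21.0 points was 14.1 to 26.9 with a library left out, 5.19 under the stricter definitions in the 1 library with enough B cells, and 2.08 for kappa genes alone. At 10 light V UMIs no library had the 2 assigned B cells that this measure needs. With summed UMIs the mean share of Igkv10-96 was 4.74% in place of 12.1% over all light V genes and 10.4% in place of 15.9% over kappa genes, and the same-gene probability of kappa-constant cells was 6.82% in place of 4.86%. The share of kappa-constant cells led by Iglv1, 36.4% as a mean of libraries, was 19.1% at an 80% share. By the size rule in plasma cells, 2 members stood out on each side with every barcode kept, 2 on the small and 3 on the large intestinal side at a 2-fold gap, and 2 on the large side without doublet removal or at Jchain 2%. The share of all genes was not computed for these size rule alternatives, so their counts have no background. The causes were not tested. The few V UMIs per B cell limit every B cell value, and 26 to 60 assigned kappa-constant plasma cells limit each small intestinal share.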
